A study of Arabidopsis thaliana with 4 samples.

Results

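The probe sets described here are a run of 150 with consecutive identifier numbers, chosen by that number alone, out of 22746 tested on an Affymetrix expression array of *Arabidopsis thaliana*. The block is known as the one made for the plastid and mitochondrial genomes, and the platform annotation bore this out only in part. Of the 150, 77 were assigned to the plastid genome, 69 of them to a single gene and 8 to several gene records that all lie on the plastid chromosome. A further 12 were assigned to single mitochondrial genes. Another 5 carried AT2G07 loci and 10 carried AT2G26 loci, all on nuclear chromosome 2. One probe set matched several genes, and 45 had no gene in the annotation and are called by their identifiers. The block is therefore not purely organellar, and the chromosome 2 members are described apart from the rest. At its edges the first member lay at a log2 change of 0.042 ± 0.19 (SE) and the last, psbK, at 0.017 ± 0.23, while the next probe set outside, 245051_at, lay at 0.59 ± 0.12.

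The RKD4-induced seedlings carried the transgenes UAS-RKD4 and 35S-GVG, and the control seedlings carried 35S-GVG alone, both in the Col-0 ecotype. GVG is a chimeric activator that dexamethasone switches on, here driven by the 35S promoter, and RKD4 is an RWP-RK transcription factor of the early embryo. Both lines were moved to 1 µM dexamethasone at day 2 after germination, kept on it for 24 h and harvested at day 3. There were 2 arrays of RKD4-induced and 2 of control seedlings, each made from a pool of 60 whole seedlings, labelled as biological replicates. The labels do not say whether the pools of a group were grown at separate times, and p-values measure only the spread between these arrays. Seedlings without dexamethasone were not analysed here, and what RKD4 did cannot be told apart from other differences between the 2 lines.

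Plastids and mitochondria keep small genomes of their own. The plastid genome encodes the core subunits of the photosystems, the cytochrome b6f complex, the ATP synthase, an NADH dehydrogenase-like complex (NDH), the large subunit of Rubisco, a bacterial-type RNA polymerase and part of a ribosome. Most plastid genes lie in clusters that are transcribed together and then processed. A nucleus-encoded phage-type polymerase reads the housekeeping genes, and the plastid-encoded polymerase reads most photosynthesis genes. The mitochondrial genome encodes subunits of the respiratory chain and factors of cytochrome c maturation. The remaining subunits of these complexes are made in the nucleus. Col-0 also carries a long insertion of mitochondrial DNA in nuclear chromosome 2, where the AT2G07 loci of this block lie. For these, and for any mitochondrial probe set that also matches the insertion, a nuclear and a mitochondrial transcript cannot be told apart. Which of the mitochondrial probe sets match it was not tested. Most organelle transcripts lack the stable poly(A) tails from which the labelling kit primes.

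Median signals were 175 on both RKD4-induced arrays and 180 and 185 on the control arrays, and no detection calls were used. Changes are on the scale log2(signal + 32.4), where 32.4 is the 25th percentile of all signals, and are given as RKD4-induced over control with the SE of a limma fit across all 22746 probe sets and n = 2 arrays per group. A probe set is said to have risen or fallen where its Benjamini-Hochberg adjusted p over all probe sets was under 0.05. Signals of different probe sets differ with their probes and give no order of transcript abundance. In whole seedlings, fewer cells of a type and less RNA per cell cannot be told apart. Among markers of particular cells, both of 2 measured root hair genes fell, with summed signals of 827 and 882 on RKD4-induced and 1695 and 1311 on control arrays. Of 5 egg cell genes 2 were measured and 1 of them rose, with sums of 2403 and 2133 on RKD4-induced and 20.3 and 3.71 on control arrays, and the other lay under the pseudocount on every array. The part of these cells in the results below was not tested.

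Signals of the plastid probe sets differed little between RKD4-induced and control seedlings. Whether these signals follow the levels of all plastid transcripts was not tested. Of 77 plastid probe sets 1 rose and none fell (limma), which is 1.3%, against 21.8% of all probe sets called, 10% higher and 11.8% lower. At an unadjusted p under 0.05 the count was 6 of 77, or 7.79%, against 35.7% of all. The median log2 change of the plastid probe sets was 0.031, with 44 above and 33 below 0, against a median of -0.076 over all probe sets. With 1 array left out the plastid median lay between -0.094 (without control replicate 1) and 0.12 (without control replicate 2), and it was also below 0 without RKD4-induced replicate 2, at -0.058. None of the 77 differed at least 2-fold, which 7.10% of all probe sets did. The RKD4-induced and control arrays did not overlap for 22 of the 77, 10 of them higher and 12 lower, which is 28.6%. Over all probe sets it was 61.4%, with 24.4% higher and 37.0% lower. The median absolute log2 change was 0.13 for the plastid probe sets and 0.28 for all.

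The error of the plastid values was about that of all probe sets, but among bright probe sets it was larger than outside the block. The median SE was 0.157 for the 77 plastid probe sets and 0.164 over all. For 72 of the 77 the 95% interval of the change lay within 2-fold in either direction, which held for 77.0% of all probe sets. The other 5 were atpA, atpI, petL, psbM and psbN. No plastid probe set read below the pseudocount on any array, with signals between 54.7 and 42069. Many are bright: 57 have a mean signal of at least 1000, and 1 of these passed, or 1.75%, while 36.0% of the 3338 probe sets outside the block past the same minimum did. The plastid ones were the brighter of these, with array medians between 4780 and 6667 against 1964 to 2005. Among them the median SE was larger for the plastid ones, at 0.153 against 0.114. No test of these shares against each other was made.

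**Figure D1:**
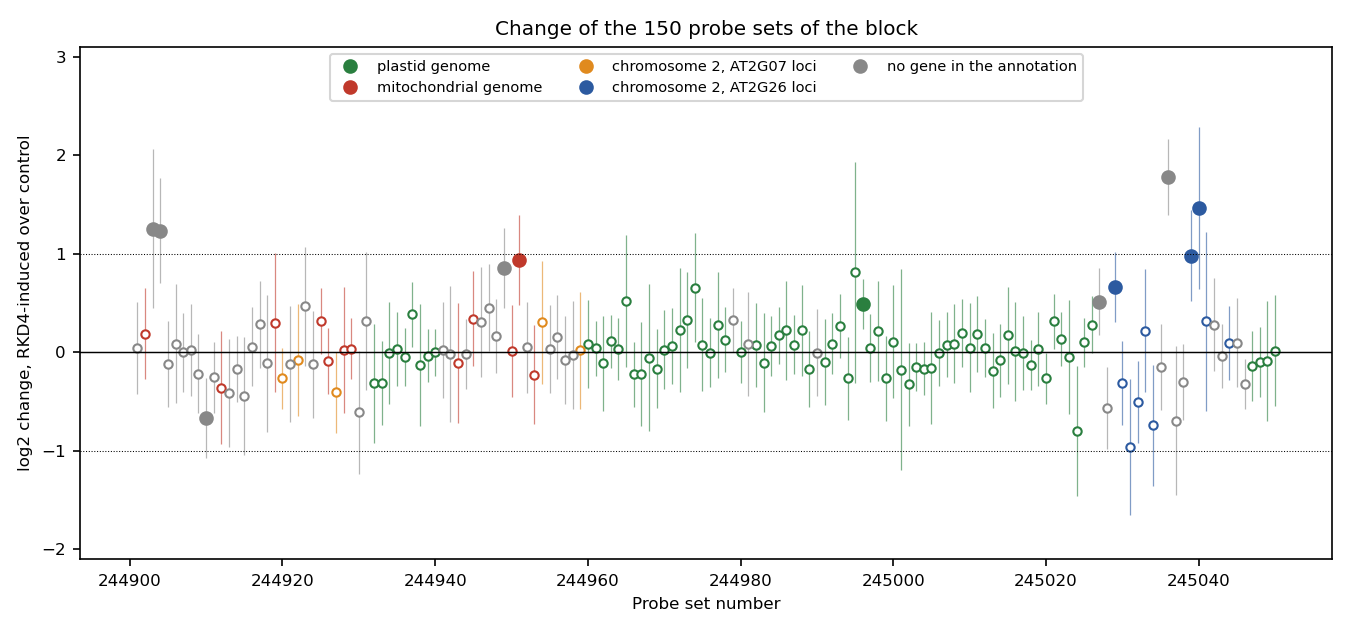
The log2 change of RKD4-induced over control seedlings (vertical axis) of each of the 150 probe sets against its identifier number, coloured by the genome it was assigned to, with 95% intervals; filled points passed the test and dotted lines mark 2-fold. The plastid probe sets stay within 2-fold and 1 is filled, while most filled points stand at the 2 ends of the block, among unassigned and chromosome 2 probe sets.

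The one plastid gene that rose was rps2, which encodes a protein of the small ribosomal subunit. Its signal was 2651 and 2355 on the RKD4-induced arrays, against 1822 and 1718 on the control arrays, so the groups stood apart. It rose by 0.49 ± 0.11, or 1.4-fold, with an adjusted p of 0.0226 (limma). With any 1 of the 4 arrays left out, its log2 change stayed between 0.41 and 0.57 but the call was lost, with adjusted p between 0.0596 and 0.120. It was also lost in limma without the variance trend (adjusted p = 0.0603, limma).

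The widest spread of changes within any role group was among the 6 genes of the plastid ATP synthase. Of them 4, with rps2, follow each other on the plastid chromosome as a cluster in the order atpA, atpF, atpH, atpI and rps2. Whether they were read as 1 transcript was not tested. The gene atpI encodes a membrane subunit of the ATP synthase, and its signal was 520 and 638 on RKD4-induced arrays against 171 and 558 on control arrays. Its groups overlapped, control replicate 1 lay far below the other arrays, and its log2 change of 0.81 ± 0.46 did not pass (adjusted p = 0.267, limma). Without control replicate 1 it lay at 0.042, and without control replicate 2 at 1.58 with an adjusted p of 0.0189 (limma). The gene atpA encodes the alpha subunit of the catalytic head, with signals of 3068 and 3801 on RKD4-induced arrays against 7982 and 4470 on control arrays. The groups stood apart, with control replicate 1 far above the rest, and the change of -0.80 ± 0.27 did not pass (adjusted p = 0.0859, limma). It lay at -0.39 without control replicate 1 and at -1.22 without control replicate 2, where it passed (adjusted p = 0.0293, limma).

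The genes between them, both for membrane subunits, did not pass either. For atpH, which encodes the ring-forming subunit, the RKD4-induced arrays (1673 and 1885) stood above the control arrays (1356 and 1565), with a log2 change of 0.28 ± 0.12. For atpF the change was 0.10 ± 0.10, with overlapping groups. Along the cluster from rps2 to atpA the changes were thus 0.49, 0.81, 0.28, 0.10 and -0.80, of which the first passed the test. The other ATP synthase genes, atpB for the beta and atpE for the epsilon subunit, are read together at another place and lay at -0.082 ± 0.15 and -0.19 ± 0.16 (0.11 and 0.047 after quantile normalization). The signal of atpE was 39614 and 33654 on RKD4-induced arrays and 41198 and 42069 on control arrays, so the RKD4-induced arrays were lower, and it is the brightest member of the block.

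Genes of the 2 photosystems did not pass the test, 0 of 5 for photosystem I and 0 of 15 for photosystem II, with 0 and 2 at an unadjusted p under 0.05 (limma). Their median log2 changes were -0.0074 and 0.034. For psaB, one of the paired reaction-centre proteins of photosystem I, signals were 25403 and 22776 on RKD4-induced arrays and 23210 and 25145 on control arrays, and its change was -0.0063 ± 0.14. Its partner psaA lay at 0.078 ± 0.14. The gene psaC, for the iron-sulphur subunit, had the lowest value of the group, at -0.31 ± 0.25 with overlapping arrays. In photosystem II, psbD encodes the D2 reaction-centre protein, and its signals of 549 and 605 in RKD4-induced seedlings lay below 616 and 866 in control seedlings, a change of -0.33 ± 0.17 (adjusted p = 0.236, limma).

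The highest value among the photosystem II names was that of psbN, which is encoded on the strand opposite its psbB cluster and acts in photosystem assembly. Its signals were 832 and 1066 in RKD4-induced seedlings, against 465 and 737 in control seedlings. The groups stood apart, but the change of 0.66 ± 0.23 had an adjusted p of 0.0927 (limma) and did not pass. It lay at 0.34 without control replicate 1 and at 0.97 without control replicate 2. The widest spread between replicates among these 15 genes was that of psbM, for a small subunit at the dimer interface, which read 15913 and 32531 on RKD4-induced arrays and 18517 and 35669 on control arrays. Replicate 2 was close to double replicate 1 in both groups, and its 95% interval, from -1.20 to 0.84, was the second widest among the plastid genes after that of atpI.

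In the cytochrome b6f complex, which links the photosystems, 0 of 6 genes passed and 1 had an unadjusted p under 0.05 (limma). The gene petL, for a small subunit, read 1919 and 2730 in RKD4-induced seedlings against 1213 and 2070 in control seedlings, with overlapping groups and a change of 0.52 ± 0.27. It lay at 0.14 without control replicate 1 and at 0.90 without control replicate 2. That of petA, for cytochrome f, was lower in both RKD4-induced arrays (6581 and 6691) than in the control arrays (8312 and 7628), at -0.26 ± 0.11 (adjusted p = 0.135, limma). In the NDH complex, which feeds electrons back into the chain, 0 of 10 genes passed and 1 had an unadjusted p under 0.05. Its values ran from -0.32 ± 0.17 for ndhE to 0.39 ± 0.14 for ndhH. The brightest of them, ndhI, read 31561 and 26154 in RKD4-induced and 27365 and 28782 in control seedlings, at 0.034 ± 0.15. For ndhH the RKD4-induced arrays, at 277 and 283, stood above the control arrays, at 201 and 213 (adjusted p = 0.0965, limma). The gene rbcL, for the large subunit of Rubisco, read 7167 and 6555 in RKD4-induced and 4914 and 7534 in control seedlings, a change of 0.17 ± 0.20 with the control arrays on either side of the induced ones.

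Genes of known plastid clusters can also be set side by side, although single changes did not pass. Whether the genes of a cluster were read as 1 transcript here was not tested. All 3 measured genes of the psbD cluster lay below 0, from -0.33 to -0.15. All 4 of the psbE cluster lay above 0, from 0.034 to 0.31, and so did all 3 of the ndhC cluster, from 0.045 to 0.19. In the psbB cluster 4 of 5 lay above 0, up to 0.33, and in the large ribosomal cluster 6 of 7, from -0.11 to 0.22. In the ndhH to ndhD cluster 2 of 7 lay above 0, in the rpo cluster 2 of 3, in the psaA cluster 1 of 3 and in the atpB cluster 0 of 2. Over all plastid probe sets 44 of 77 did, and over all tested probe sets 9471 of 22746. Signs of single genes did not all hold with 1 array left out. Then psbE lay between -0.073 and 0.14, ndhC between -0.059 and 0.15, ndhJ between -0.17 and 0.27 and ndhK between -0.00077 and 0.38. The 3 genes of the psbD cluster and psbF, psbL and psbJ kept theirs.

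**Figure D2:**
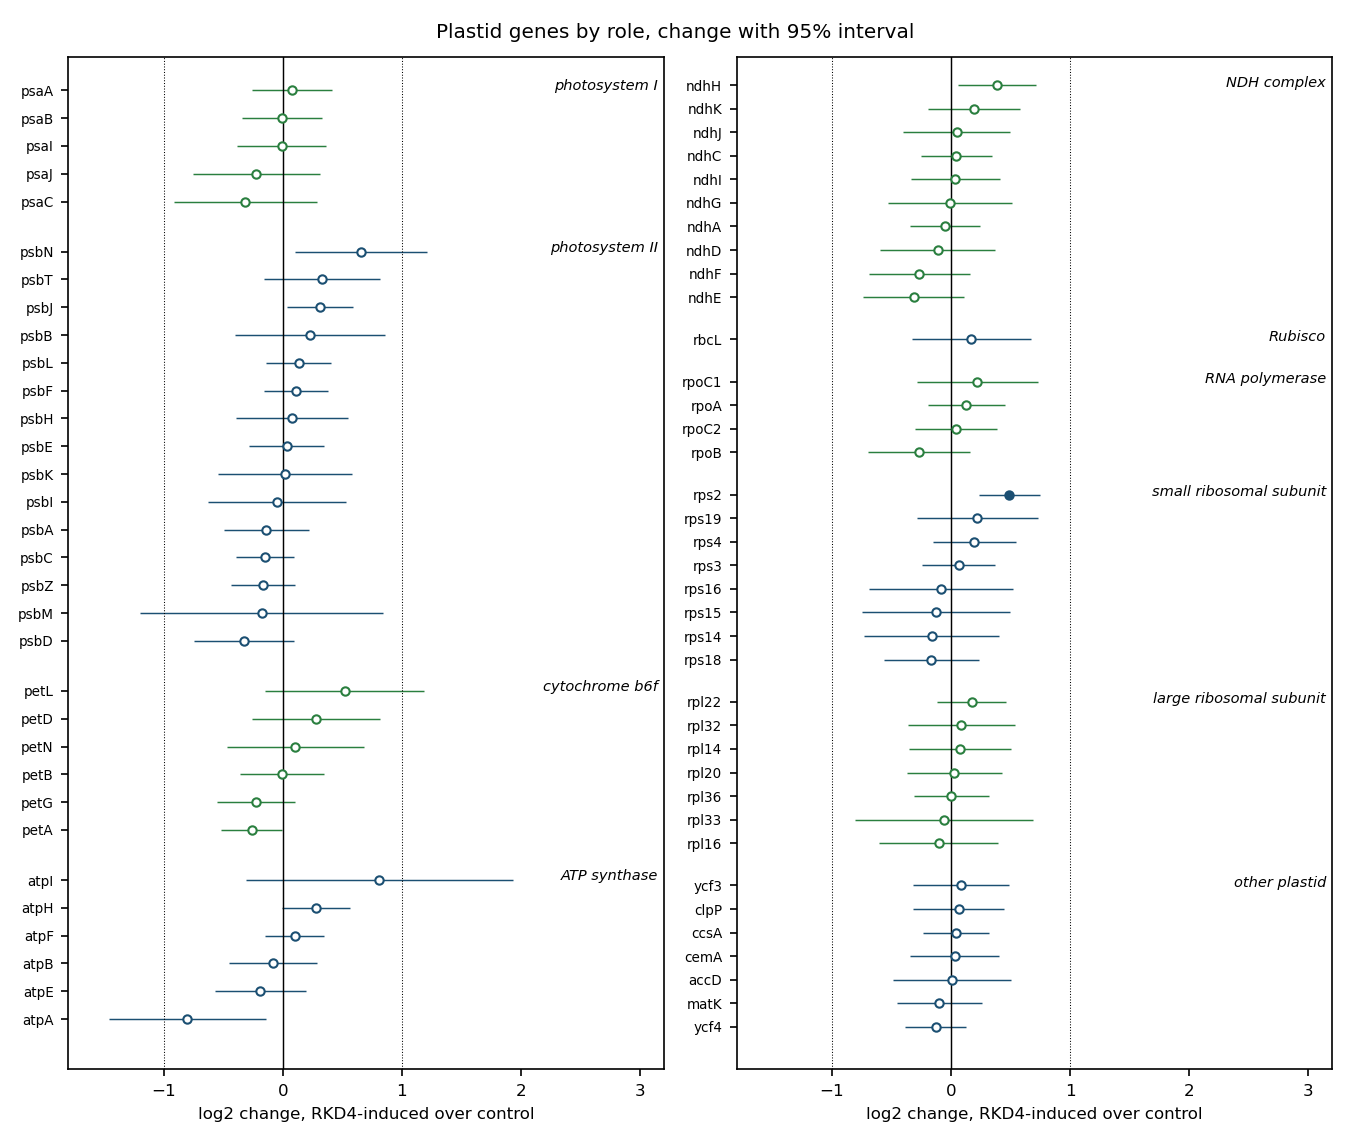
The log2 change of RKD4-induced over control seedlings (horizontal axis) of the 69 plastid genes that a probe set reads singly, sorted by role from highest to lowest, with 95% intervals and dotted lines at 2-fold. Each role group lies on both sides of 0 apart from Rubisco with its single gene, and rps2 is the only filled point, the one that passed the test.

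Among the genes for the plastid's own gene expression rps2 was the one that passed. Of the 4 genes of the plastid-encoded RNA polymerase none passed, with 0 at an unadjusted p under 0.05 (limma). The first gene of the rpo cluster, rpoB, read 85.3 and 82.2 in RKD4-induced seedlings, below 98.5 and 117 in control seedlings, at -0.27 ± 0.18. The gene rpoC1, for another subunit, lay at 0.22 ± 0.21 with overlapping arrays. Of 8 singly assigned small-subunit ribosomal genes rps2 alone passed, and the lowest was rps18 at -0.17 ± 0.16. Of 7 large-subunit genes none passed, with 0 at an unadjusted p under 0.05, and they ran from -0.11 ± 0.21 for rpl16 to 0.17 ± 0.12 for rpl22. The other 7 plastid genes, with roles such as splicing, protein breakdown, lipid and cytochrome synthesis and photosystem assembly, ran from -0.13 ± 0.10 for ycf4 to 0.085 ± 0.16 for ycf3. Both of these are photosystem I assembly factors, and none of the 7 passed. The 8 plastid probe sets with several gene records lay between -0.17 and 0.27, and none of them passed either.

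Plastid signals differed between replicate arrays in a shared direction. Of the 77 plastid probe sets, 56 read higher on RKD4-induced replicate 2 than on replicate 1, and 59 read higher on control replicate 2 than on control replicate 1. In both groups at once replicate 2 was higher for 40 and replicate 1 for 2, or 51.9% for the first against 26.8% of all probe sets. From probe set to probe set, the differences in the 2 groups correlated at 0.013 for the plastid ones and 0.081 over all. The shared direction was thus a shift of the set, and its size in single plastid probe sets was not shared between the groups. The median log2 difference of replicate 2 over replicate 1 was 0.12 in RKD4-induced and 0.17 in control seedlings. The summed signal of the 77 was 451708 and 486533 on the RKD4-induced arrays, against 441603 and 496882 on the control arrays, so the groups overlapped and the replicates lay further apart than the groups. The mitochondrial probe sets ran the other way: replicate 1 was higher in both groups for 7 of 12 and replicate 2 for 1. The labels do not say whether same-numbered pools shared a day or batch, and the part of such a difference was not tested.

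**Figure D3:**
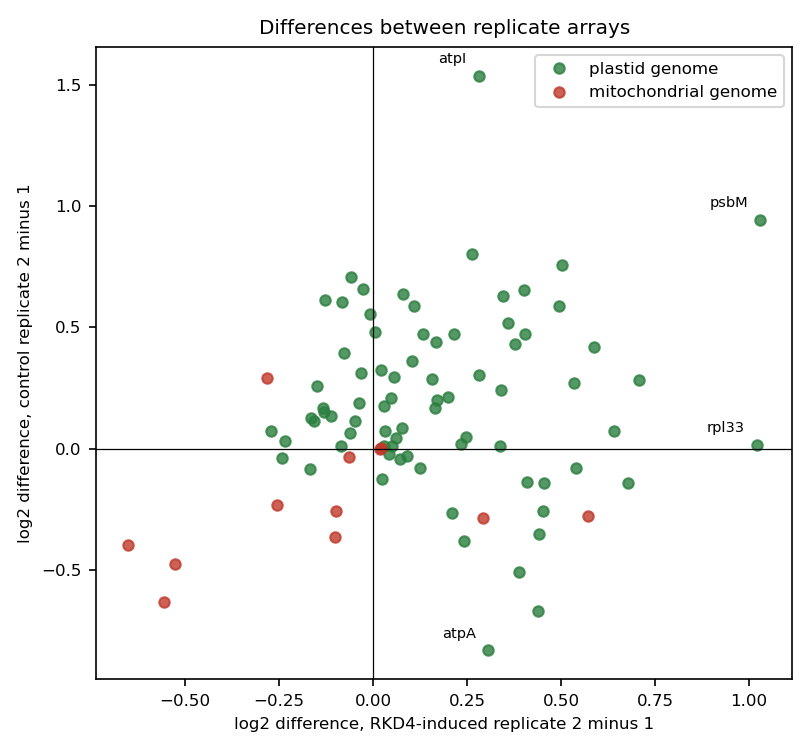
For each plastid (77) and mitochondrial (12) probe set, the log2 difference of replicate 2 minus replicate 1 in RKD4-induced seedlings (horizontal axis) and in control seedlings (vertical axis). Most plastid points lie right of and above 0, 40 of them in the upper right, while 7 of the mitochondrial points lie in the lower left.

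Among the 12 mitochondrial probe sets 1 rose and none fell, or 8.33% against 21.8% of all probe sets, with 1 at an unadjusted p under 0.05 (8.33% against 35.7%, limma) and a median log2 change of 0.030. That median was 0.23 without control replicate 1 and -0.062 without control replicate 2. The gene that rose was ccb452, a gene of cytochrome c biogenesis, by which haem is attached to the mitochondrial cytochromes. It read 292 and 234 on the RKD4-induced arrays, against 106 and 137 on the control arrays, with the groups well apart. It rose by 0.94 ± 0.19, or 1.91-fold, with an adjusted p of 0.0178. The call was lost without any 1 of the 4 arrays, with a log2 change between 0.79 and 1.08 and an adjusted p between 0.0511 and 0.122. Its probe set is of the kind that matches more than 1 transcript, and whether a nuclear one is among them was not tested. The other genes of this pathway did not pass. Of them ccb382 read 1396 and 877 in RKD4-induced and 1645 and 1242 in control seedlings, at -0.36 ± 0.24 with overlapping arrays, and between -0.69 (without RKD4-induced replicate 1) and -0.034 (without RKD4-induced replicate 2) with 1 array left out.

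Genes of mitochondrial respiratory complexes did not pass. For nad4, a membrane subunit of complex I, signals were 285 and 289 on the RKD4-induced arrays and 279 and 278 on the control arrays, and the change was 0.037 ± 0.13. The groups stood apart by little. For cox2, a catalytic subunit of cytochrome c oxidase, they were 135 and 124 in RKD4-induced and 150 and 109 in control seedlings, at 0.014 ± 0.19. Another 2 of the 12, nad7 for complex I and matR for a splicing factor, read under the pseudocount on all 4 arrays. The 5 AT2G07 probe sets did not pass, with 0 at an unadjusted p under 0.05, and the lowest of them was AT2G07776 (a mean of 31.3 in RKD4-induced against 52.0 in control seedlings, n = 2 each) at -0.41 ± 0.17.

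Most of the probe sets that passed were not assigned to an organelle genome. In the whole block 10 rose and 1 fell, 7.33% of the 150, against 21.8% of all probe sets, 10% higher and 11.8% lower. Apart from rps2 and ccb452, 3 of these 11 belong to the AT2G26 loci and 6 have no gene in the annotation. The largest change was that of 245036_at, which read 287 and 290 on the RKD4-induced arrays and 59.8 and 62.2 on the control arrays. It rose by 1.78 ± 0.16, or 3.43-fold (adjusted p = 0.00122, limma), and it alone of the 11 kept its call whichever array was left out. Replicates of each group agreed closely. No gene is named for it, and the named probe sets numbered next to it carry AT2G26 loci.

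**Figure D4:**
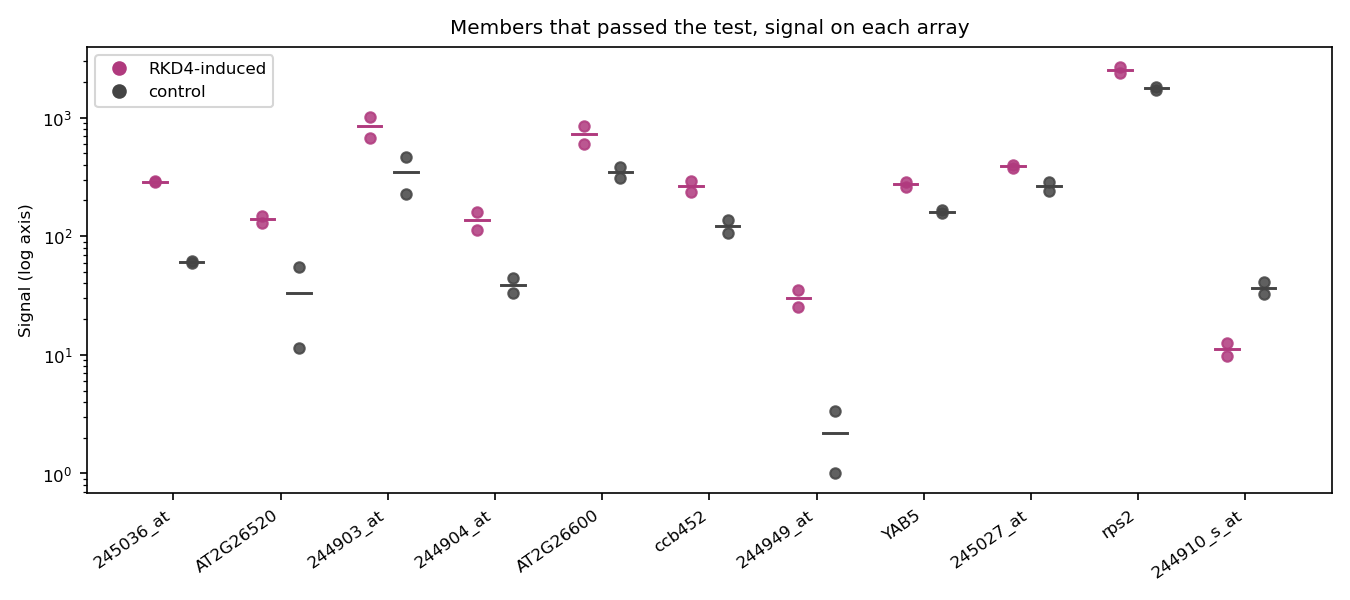
Signal (log axis) of the 11 probe sets that passed the test, on each RKD4-induced array (left of each pair) and each control array (right), with a bar at the group mean, sorted from the largest rise to the fall. The groups do not overlap for any of them; 244949_at and 244910_s_at lie lowest, with both groups or the control group near or under 32.4.

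The other unassigned probe sets that passed lie mostly at low numbers, among mitochondrial ones. Signals of 244903_at were 1008 and 672 in RKD4-induced seedlings, against 226 and 466 in control seedlings. It rose by 1.25 ± 0.33 (adjusted p = 0.0434, limma), with replicates well apart in both groups. Its neighbour by number, 244904_at, rose by 1.23 ± 0.22, with 161 and 112 in RKD4-induced against 33.0 and 44.5 in control seedlings. For 244949_at (25.3 and 35.5 in RKD4-induced against 1.01 and 3.34 in control seedlings) the rise was 0.86 ± 0.17. Most of its signals lay under the pseudocount, so this value understates the change. The rise of 245027_at was small, at 0.51 ± 0.14. The only fall was of 244910_s_at, which dropped by 0.67 ± 0.17, with 12.6 and 9.69 in RKD4-induced against 32.5 and 41.3 in control seedlings, all close to or under the pseudocount. It lost its call with a pseudocount of 1 (adjusted p = 0.0664, limma), where it lay at -1.64. With single arrays left out, adjusted p reached 0.224 for 244903_at (log2 change between 0.78 and 1.73), 0.0823 for 244904_at, 0.0792 for 244949_at, 0.197 for 245027_at and 0.154 for 244910_s_at. Each lost its call in all 4 such fits, apart from 244904_at without RKD4-induced replicate 2 and 244903_at without control replicate 2.

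Several unassigned probe sets had low values that did not pass. The brightest of these, 245028_at, read 192 and 231 in RKD4-induced against 290 and 369 in control seedlings, at -0.56 ± 0.17 (adjusted p = 0.0646, limma), and passed with a filter at the 30th percentile of signal (adjusted p = 0.0213, limma). For 245037_at the change was -0.69 ± 0.31, with 4.17 and 35.7 in RKD4-induced against 54.2 and 42.8 in control seedlings. The changes of 244930_at (-0.61 ± 0.26), 244915_s_at (-0.44 ± 0.25) and 244913_at (-0.42 ± 0.23) rest on signals that were mostly under the pseudocount. With 1 array left out they lay between -0.98 and -0.24 for 244930_at, which passed without control replicate 1 (adjusted p = 0.0365, limma), between -0.79 and -0.093 for 244915_s_at and between -0.72 and -0.11 for 244913_at. That of 245037_at lay between -1.14 and -0.24.

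Of the 10 nuclear genes at AT2G26 loci 3 rose and none fell, against 21.8% of all probe sets called, and 6 had an unadjusted p under 0.05, against 35.7% of all. AT2G26520 read 148 and 129 in RKD4-induced seedlings, against 54.8 and 11.3 in control seedlings, and rose by 1.47 ± 0.34 (adjusted p = 0.0281, limma). Its control arrays lay far apart from each other. AT2G26600, a glycosyl hydrolase, read 601 and 840 in RKD4-induced against 309 and 383 in control seedlings and rose by 0.98 ± 0.19. YAB5, a YABBY transcription factor of leaf polarity, read 258 and 288 in RKD4-induced against 155 and 165 in control seedlings and rose by 0.66 ± 0.15. With single arrays left out, adjusted p reached 0.155 for AT2G26520 (called in 1 of 4 fits), 0.0932 for AT2G26600 (1 of 4) and 0.138 for YAB5 (0 of 4). Among those that did not pass, AT2G26360, a mitochondrial carrier family gene, lay at -0.96 ± 0.28. Its signals were 42.3 and 27.0 in RKD4-induced against 134 and 69.0 in control seedlings. It passed with a filter at the 30th percentile of signal, and lay between -1.32 and -0.61 with 1 array left out. AT2G26390, a serpin, read 25.1 and 3.57 in RKD4-induced against 41.4 and 46.0 in control seedlings, at -0.74 ± 0.25. AT2G26630, a pseudogene, read 9.90 and 13.3 in RKD4-induced against 25.1 and 35.1 in control seedlings, at -0.50 ± 0.17. AT2G26500, known as a nucleus-encoded small subunit of the plastid cytochrome b6f complex, read 26854 and 22845 in RKD4-induced and 21550 and 24982 in control seedlings, an overlap of the groups and a change of 0.094 ± 0.15.

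Nuclear genes that serve the same organelles were read from lists, of which a named probe set measured only part. For photosynthesis 9 of 50 genes were measured and none passed, with 1 at an unadjusted p under 0.05 (limma), a median log2 change of -0.13 and 8 of 9 below 0. PSAE-1, a stromal subunit of photosystem I, lay at -0.29 ± 0.14 and LHCB4.3, a minor antenna protein, at 0.27 ± 0.10. Summed over the 9, which also mark green tissue, signal was 173409 and 160609 on RKD4-induced arrays and 176978 and 197095 on control arrays. The RKD4-induced sums lay below both control sums, and the part of this in the plastid values was not tested. For the mitochondrial respiratory chain 8 of 20 were measured and none passed, with 0 at an unadjusted p under 0.05 and a median of -0.031. Of the organelle phage-type polymerases only AT5G15700, the dual-targeted one, was measured, at -0.35 ± 0.21, and of the RNA editing MORF proteins only AT1G32580, at 0.18 ± 0.13. None of 6 sigma factors and none of 13 proteins associated with the plastid polymerase had a named probe set.

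Among the alternative dehydrogenases, single nucleus-encoded proteins that oxidise NAD(P)H beside complex I, 4 passed the test. Of 12 genes for alternative respiration 5 were measured, of which 3 rose and 1 fell, against 10% of all probe sets higher and 11.8% lower. NDC1, found in both organelles, read 1038 and 1259 in RKD4-induced seedlings, against 478 and 512 in control seedlings, and rose by 1.16 ± 0.13 (adjusted p = 0.00247, limma). NDB1, an external enzyme of the inner mitochondrial membrane, read 791 and 654 in RKD4-induced against 407 and 324 in control seedlings and rose by 0.93 ± 0.16. NDB3, of the same family, rose by 1.15 ± 0.18, with 62.4 and 47.0 in RKD4-induced against 5.18 and 8.20 in control seedlings, the control signals being under the pseudocount. NDB2, another external enzyme, was the member that fell, by 1.17 ± 0.12, with 396 and 344 in RKD4-induced against 913 and 828 in control seedlings (adjusted p = 0.00212, limma). The fifth, NDB4, was under the pseudocount on every array. With arrays left out in turn NDC1 and NDB2 kept their calls. NDB1 lost its call without control replicate 2 (adjusted p = 0.0629, limma) and without RKD4-induced replicate 1 (0.0804), and NDB3 without control replicate 1 (0.0528) and without RKD4-induced replicate 1 (0.0528). No alternative oxidase of the list had a named probe set.

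**Figure D5:**
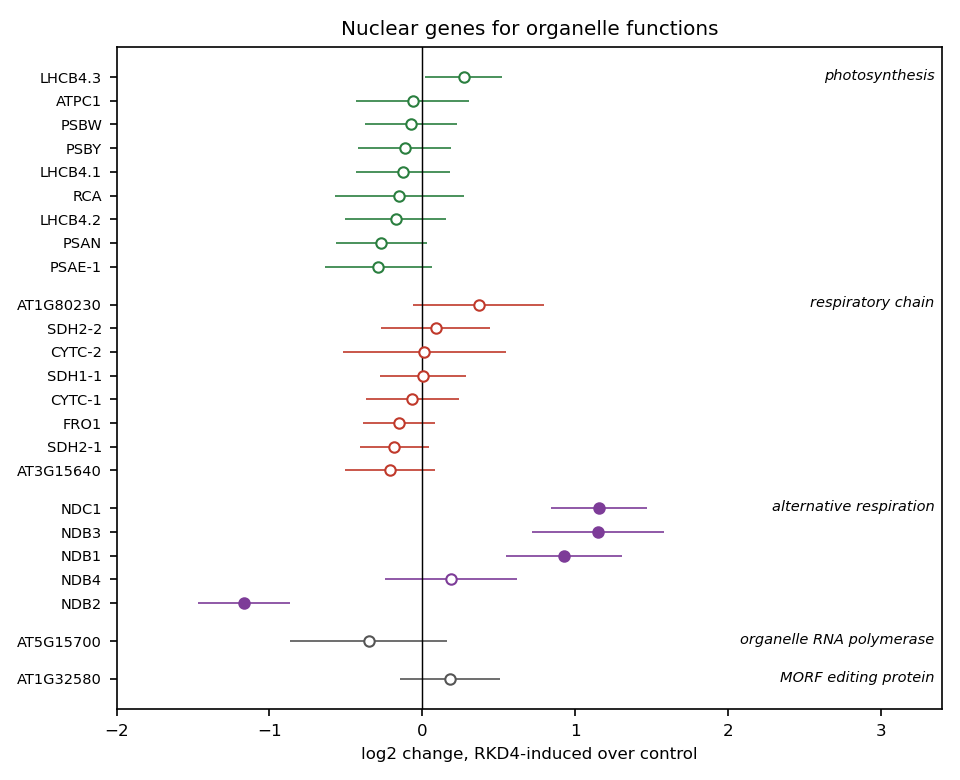
The log2 change of RKD4-induced over control seedlings (horizontal axis) of the measured nuclear genes for organelle functions, grouped by list, with 95% intervals; filled points passed the test. The photosynthesis and respiratory chain genes lie within 0.37 of 0 and are open, while 3 alternative respiration genes are filled near 1 and NDB2 is filled at -1.17.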

How the data were processed

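Total RNA of 4 pools was labelled and read on an array whose intensity values, 1 per probe set on a linear scale, the authors deposited after processing with GCOS, per the submitters' processing notes. Each array has the same trimmed mean of 500, and neither detection calls nor scanner files were used here. From these values 64 control probe sets were left out and 22746 were tested with limma 3.58.1 (R 4.3.3): log2(signal + 32.4), both groups in 1 fit, eBayes with a variance trend, adjusted over all probe sets at 0.05. With 2 arrays a group the number of arrays limits the precision, and an exact permutation test of a single value cannot go below 0.333. The fit was tried on simulated data of 22746 probe sets, with independent normal noise at the variances of the fit itself. Changes were given only to probe sets whose mean log2 value lay above that of a signal of 32.4. There the fit recovered 93 of 100 changes of 2-fold and 100 of 100 of 4-fold. The 28 false calls were a larger share of the calls than 0.05. How well changes of dimmer probe sets are recovered was not tested.

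Names come from the platform annotation, only where it gives 1 gene, and from a RefSeq table of TAIR10.1, used for names and gene order. The 12 mitochondrial names matched through symbol or synonym. Full values were due for the 12 members with the largest rise and the 12 with the largest fall, the 6 brightest and the 4 brightest of each organelle genome, and for up to 4 genes of each list with the largest change. Any other singly assigned member could be named by role, and those named here (rps2 and its neighbours, the extremes of a role) were chosen after their values were seen. The members, lists and naming were chosen with earlier results of these data known. Other scalings, pseudocounts, filters, thresholds, a replicate block and leaving out each array were tried.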

Additional observations from a re-analysis of the deposited data

How the results depend on the processing

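Directions of the named genes mostly held under the other settings. Of the 11 member calls, between 8 and 11 were kept under the other scalings, pseudocounts, filters and fits to all 4 arrays. At an adjusted p under 0.01, 1 was kept, and with a 2-fold minimum 4 were. Most were lost with 1 array left out. What did not hold is given below, and the cause was not tested. Over all probe sets, calls numbered 4954, between 1835 and 2223 with 1 array left out, 2088 at an adjusted p under 0.01 and 1593 with a 2-fold minimum. Members called higher numbered 10, between 2 and 3 with 1 array left out, 1 at 0.01 and 4 at 2-fold. Members called lower numbered 1, but 3 with a filter at the 30th percentile, between 0 and 2 with 1 array left out, and 0 with centring outside the block, with either other pseudocount, at 0.01, at 2-fold and among plain probe sets. Plastid calls numbered 1, but 3 with the filter (atpA, psbN, rps2), 0 without the variance trend, 0 at 0.01, 0 at 2-fold and between 0 and 2 with 1 array left out. Mitochondrial calls numbered 1, and 0 at 0.01, at 2-fold, among plain probe sets and with any array left out. Calls in the nuclear lists for organelle functions numbered 4, between 2 and 4 with 1 array left out. The median log2 change lay between -0.024 and 0.080 for all members, between -0.094 and 0.12 for the plastid ones and between -0.062 and 0.23 for the mitochondrial ones with 1 array left out. The numbers do not establish a pairing, since there are 2 pairs and the replicate differences correlated at 0.081 over all probe sets. With a replicate block, 27.7% of all probe sets were called, 5 members were lower, 5 plastid probe sets passed (atpA, atpI, petL, psbN and rps2) and 2 mitochondrial ones (ccb382 and ccb452).

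Genes near 0 changed sign. The log2 change of psaB was 0.045 with quantile normalization, 0.043 with median centring and 0.044 with centring outside the block, and that of atpE was 0.047 and of atpB 0.11 with quantile normalization. With 1 array left out it lay between -0.64 and 0.014 for psaC, -0.10 and 0.17 for ndhI, -0.17 and 0.20 for cox2, -0.39 and 0.063 for rps18, -0.36 and 0.15 for rpl16, -0.11 and 0.55 for rpoC1, -0.69 and 0.34 for psbM, -0.085 and 0.072 for psaB, -0.043 and 0.20 for psaA, -0.16 and 0.33 for ycf3, -0.16 and 0.00041 for atpB, -0.14 and 0.48 for rbcL, and -0.022 and 0.21 for AT2G26500. Other cluster genes also changed sign with 1 array left out, among them psbE, ndhC, ndhJ and ndhK. Of the 150 members, 16 read under the pseudocount on all arrays, none of them plastid, and for these a change is understated.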
